A study of Homo sapiens with 4 samples.

Results

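To see how far the transcriptome with OR-2100 stood apart from those with the other drugs, the OR-2100 array was compared with the mean of the DAC array and the OR-2003 array, 3 of the 4 arrays of the series. The cells were HML58-3, a derivative of the HCT116 colon cancer cell line that was engineered to report DNA demethylation through a luciferase gene behind a methylated promoter. One group of cells received DAC, another OR-2003 and another OR-2100, each at 1 µM, dissolved in DMSO, from day 1 until collection on day 5. The mock-treated cells of the remaining array were kept out of the OR-2100 difference. They serve as a level beside named genes and, in a later comparison, to sort probes by their change with a drug. Each condition was 1 one-colour array of 1 derivative line, so that no difference between drugs has a replicate check, no p-value is given, and a difference between arrays cannot be told apart from one between cultures. All arrays lay on 1 slide. Fewer cells expressing a gene and less RNA per cell cannot be told apart in such bulk RNA.

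DAC (decitabine) is a cytidine analogue that is built into DNA during replication, where it traps the maintenance methyltransferase DNMT1, so that methylation is lost as cells divide. Silenced genes with methylated promoters can then be transcribed again, and transcripts of endogenous repeats can set off the interferon response, in which receptors for foreign RNA switch on antiviral genes. OR-2003 and OR-2100 were made as prodrugs of DAC, and the question of the comparison was whether the cells responded to OR-2100 as they did to the others. All 3 drugs were compared at the same dose and time.

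A probe entered the comparison when its signal was well above background on each of the 3 drug arrays. This held for 30696 of 58201 gene probes, and for 17559 of the 25006 named genes on the array. Levels are log2 signals with the 75th percentile of all gene probes of an array at 0, and a level of -1 or more is the threshold that the study used for positive expression. The OR-2100 difference is the level with OR-2100 minus the mean of the levels with DAC and OR-2003, on the log2 scale, and the DAC to OR-2003 difference of the same probe stands beside it as the noise between arrays. Colon epithelial markers checked the label of the cells, and all 8 of them, with EPCAM between 5.29 and 5.36 on the drug arrays, were measured. Of the leukocyte, fibroblast and endothelial markers, 9 of 11 were measured on the drug arrays as well, the pan-leukocyte PTPRC at -1.79 with DAC, -1.75 with OR-2003 and -1.64 with OR-2100, and DCN at -1.56, -1.43 and -1.56 in the same order. The medians of these 3 marker lists differed by 0.04, 0.01 and 0.07 between OR-2100 and the other drugs. PTPRC was the dimmest leukocyte marker, and 2 of the 3 measured had a mean level of -1 or more. That level was also reached by 1 of 3 endothelial, 0 of 3 fibroblast and 7 of 8 colon epithelial markers.

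The 3 drug-treated transcriptomes were close to each other, and the array of OR-2100 stood a little further from both others than those stood from each other. Pearson's r across the tested probes was 0.997 for DAC and OR-2003, 0.996 for OR-2100 and DAC, and 0.996 for OR-2100 and OR-2003. A difference of at least 1.5-fold was seen at 627 probes between DAC and OR-2003, at 1032 between OR-2100 and DAC and at 1249 between OR-2100 and OR-2003. At 2-fold, the counts were 27, 81 and 166 in the same order. The robust SD of the OR-2100 difference over probes was 0.168. That of the DAC to OR-2003 difference was 0.124 after multiplication by the factor that makes both equal when the 3 arrays have the same independent noise. The ratio of both was 1.36, and it was 1.18 or more in each of 10 groups of probes by level.

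Of the tested probes, 152 (0.495%) were at least 1.5-fold higher with OR-2100 than with each of the other drugs and 284 (0.925%) were at least 1.5-fold lower than with each. This split of higher and lower probes moved with the scaling. It was 220 and 209 with cyclic loess, 189 and 184 with quantile normalization, and 266 and 197 with the median of each array at 0. With the 75th percentile of the tested probes at 0 it was 188 and 243. The spike-in controls gave 371 and 159, and normexp gave 2 and 1. By the same rule DAC stood apart at 36 higher and 99 lower probes, and OR-2003 at 156 higher and 53 lower. Most of these calls were dim. Among the 18275 probes with a mean level of -1 or more, 16 (0.0876%) were higher with OR-2100 and 1 (0.00547%), a probe of TAF5L, was lower. At that level DAC stood apart at 0 higher and 7 lower probes and OR-2003 at 2 higher and 0 lower. Among named genes, each taken by its brightest probe, 46 (0.262%) were higher and 98 (0.558%) lower with OR-2100.

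The median OR-2100 difference over named genes was -0.04. Over all tested probes the median was not the same at all levels. It was between -0.01 and 0.01 in the groups of probes from -3.22 to 0.63 and -0.09 in the brightest group. The median moved to 0.08 with spike-in scaling, a shift of the whole array, so that gene groups are given below beside the median of all named genes.

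Most of the measured genes of the interferon response and of inflammation were highest with OR-2100. Of 44 measured interferon-stimulated genes, 39 were highest with OR-2100 among the drug arrays and 1, SP110, was lowest. Over all named genes, 27.6% were highest and 48.3% lowest. The median OR-2100 difference of the list was 0.21, or 1.16-fold, against -0.04 over all named genes. It was 0.19 against DAC alone and 0.22 against OR-2003 alone, and each of the 6 other scalings and background corrections gave the same direction. Both comparisons share the OR-2100 array and the scalings reuse the same arrays, so these are not independent checks. The median DAC to OR-2003 difference of the list was 0.10, and 32 of the 44 genes were higher with DAC than with OR-2003. At 1.5-fold, 1 of the 44 genes, IFI44L, was called higher and 0 lower, against 0.262% and 0.558% of all named genes. At these shares, 0 or 1 call in a list of this size says little about the list.

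IFI44L, an antiviral gene and a sensitive marker of interferon signaling, was at -3.04 with DAC, -3.47 with OR-2003 and -2.24 with OR-2100, where the mock signal was not well above background. OR-2100 was the highest of the 3, and the OR-2100 difference was 1.01, or 2.02-fold, beside a DAC to OR-2003 difference of 0.43. IFITM1, which codes for a membrane protein that restricts viral entry, stood at 6.15 with DAC, 6.03 with OR-2003 and 6.60 with OR-2100, against 3.43 with mock. Its difference of 0.51 was larger than the 0.12 between DAC and OR-2003, and its other probe, at 5.02, 4.79 and 5.50, gave 0.59. IFITM1 has close relatives of similar sequence, and its values are uncertain to that degree. XAF1, a proapoptotic interferon target, was at 0.56, 0.37 and 0.94. The synthetase OAS1, which makes the activator of RNase L, was at -0.80, -1.13 and -0.51, and neither gene was well above background with mock. The OR-2100 differences of these genes were 0.47 and 0.46, with 0.19 and 0.34 between DAC and OR-2003.

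The stretches upstream of the starts of IFI44L (chr1:78620198-78620447, plus strand) and IFITM1 (chr11:313790-314039, plus strand) are shown because both genes were among those with the largest differences in the list. They were taken from RefSeq in build GRCh38.p14. Capitals mark matches to GAAANNGAA, the core of the element bound by interferon-activated factors, searched on both strands.
IFI44L: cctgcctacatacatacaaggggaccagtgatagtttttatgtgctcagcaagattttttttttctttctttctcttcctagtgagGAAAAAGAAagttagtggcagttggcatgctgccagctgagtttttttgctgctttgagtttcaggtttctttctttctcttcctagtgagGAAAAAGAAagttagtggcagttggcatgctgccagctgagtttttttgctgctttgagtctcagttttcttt
IFITM1: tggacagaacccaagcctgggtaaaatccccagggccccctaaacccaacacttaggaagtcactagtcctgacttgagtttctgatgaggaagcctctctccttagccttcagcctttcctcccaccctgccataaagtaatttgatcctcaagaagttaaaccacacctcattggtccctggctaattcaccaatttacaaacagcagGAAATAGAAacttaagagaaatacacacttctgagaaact
IFI44L held 2 matches and IFITM1 held 1 in these 250 bases, and neither stretch held a CpG. In the window of 250 bases before and 50 after the start, the motif was found in 62.9% of the 35 promoters available for the list, in 6.51% of those of all named genes tested and in 8.29% of all promoters in the table. Among lists described below, the share was 53.8% for antigen presentation, 20% for NF-kappaB targets, 6.90% for mitosis and 0% for DNA replication. It was 44.4% for 27 promoters of replication-dependent histones, whose median OR-2100 difference was below 0. A match describes the letters and not a bound site, and the share of a list takes no account of the OR-2100 difference.

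Antigen presentation, the loading of peptides onto HLA class I molecules, is under interferon control too. Of 16 genes, 12 were highest and 1 was lowest with OR-2100, and the median difference was 0.13. The immunoproteasome subunit PSMB8 was at -0.26 with DAC, -0.19 with OR-2003 and 0.15 with OR-2100, and the peptide transporter TAP1 at 5.26, 5.25 and 5.59. The differences were 0.38 and 0.33, while DAC and OR-2003 differed by -0.07 and 0.01. B2M, the light chain of class I molecules, has 10 spots on each array, and its OR-2100 difference was 0.16 with a standard error from the spots of 0.02. Of the 16 genes, 0 passed 1.5-fold in either direction, against 0.262% higher and 0.558% lower over all named genes.

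NF-kappaB targets and chemokines showed the same order. Of 19 genes, 17 were highest and 2 lowest with OR-2100, and the median difference was 0.20, with 0.08 between DAC and OR-2003. IL32, a proinflammatory cytokine, was at 2.41, 2.29 and 2.76 in the order DAC, OR-2003 and OR-2100. The chemokine CCL20 was at 0.70, 0.78 and 1.14, and CXCL2, which attracts neutrophils, was at 1.22, 1.14 and 1.58. The adaptor TRAF1 was dimmer, at -2.39, -2.49 and -1.98. The differences of these 4 genes lay between 0.40 and 0.46, none past 1.5-fold, and the gap between DAC and OR-2003 was at most 0.13. ICAM1, an adhesion molecule measured by 10 spots, differed by 0.15 with a standard error of 0.04.

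Genes of cell division lay on the other side. Of 35 mitotic genes, 34 were lowest with OR-2100 and 0 were highest, and the exception was FOXM1. The median difference was -0.21, or 1.15-fold lower, and was -0.22 against DAC and -0.19 against OR-2003. The direction of the median held under each scaling, though 24 of the 35 genes were lowest with the median of each array at 0 and 17 with spike-in controls, where the list median was -0.08. These were 68.6% and 48.6% of the list, against 22.5% and 14.4% of all named genes under the same settings. The kinetochore gene NUF2 was at 1.67, 1.55 and 1.19 in the order DAC, OR-2003 and OR-2100, against 1.57 with mock. DLGAP5, a spindle protein, was at 2.63, 2.57 and 2.19, and cyclin B1 (CCNB1), the partner of CDK1, at 4.89, 4.92 and 4.55. The differences were -0.43, -0.41 and -0.35, beside a gap between DAC and OR-2003 of 0.12, 0.06 and -0.03. The checkpoint kinase BUB1 followed with -0.31. BIRC5, or survivin, a 10-spot probe, differed by -0.28 with a standard error of 0.03. At 1.5-fold, 0 mitotic genes were called in either direction, against 0.262% higher and 0.558% lower over all named genes.

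The stretch upstream of DLGAP5 (chr14:55191586-55191835, minus strand) is shown with TTTGAA in capitals on either strand, the core of the cell cycle homology region through which many mitotic genes are repressed outside G2 and M phase.
DLGAP5: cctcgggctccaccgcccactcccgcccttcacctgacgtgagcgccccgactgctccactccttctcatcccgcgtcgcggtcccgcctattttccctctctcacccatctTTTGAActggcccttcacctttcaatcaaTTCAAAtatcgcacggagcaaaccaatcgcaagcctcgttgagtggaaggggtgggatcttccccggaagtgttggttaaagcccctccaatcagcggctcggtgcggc
These 250 bases held 2 matches and 19 CpGs. In the window that also takes 50 bases after the start, TTTGAA was found in 65.5% of 29 mitotic promoters and in 10.5% of those of all named genes tested. The letters CCAAT, the box bound by NF-Y, were found in 75.9% and 36.3%.

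DNA replication genes were lower to a smaller degree. Of 40 genes, 36 were lowest and 3, LIG1, POLE and CLSPN, were highest, and the median difference was -0.14. A list of 19 housekeeping genes, bright with a median level of 5.82, had a median difference of -0.11, and 16 were lowest. How far the level of the replication genes entered their median was not tested. Ribonucleotide reductase supplies deoxynucleotides, and its subunits RRM1 and RRM2 were at 3.61 and 1.73 with OR-2100. With DAC they were at 3.92 and 2.07, and with OR-2003 at 4.03 and 2.05. Thymidine kinase TK1 and the sliding clamp PCNA differed by -0.32 each. Spike-in scaling brought the median of the list to -0.02, against 0.08 for all named genes. Replication-dependent histones, whose transcripts accumulate in S phase, had a median of -0.19, with 28 of 29 genes lowest with OR-2100. The counts moved with the scaling. With the median of each array at 0, 21 replication, 19 histone and 7 housekeeping genes were lowest, or 52.5%, 65.5% and 36.8%, against 22.5% of all named genes. With spike-in controls 15, 15 and 3 were lowest, or 37.5%, 51.7% and 15.8%, against 14.4%. H2BC4 was at 2.98 with DAC, 3.02 with OR-2003 and 2.66 with OR-2100. Histone genes are near-identical in sequence, so that single values are uncertain. UHRF1, which brings DNMT1 to replicated DNA, was at 3.29, 3.20 and 2.93, the largest difference (-0.32) among 20 genes of the methylation machinery, whose median was -0.05.

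For a few other groups the size or the sign of the median moved with the scaling. Of 29 ribosomal protein genes, 29 were lowest with OR-2100 with a median of -0.13, but the median was 0.01 with cyclic loess, under which 9 were lowest and 7 highest. Of 29 oxidative phosphorylation genes, 27 were lowest with a median of -0.14, which was -0.06 with cyclic loess and -0.02 with spike-in controls, below 0 under each scaling. The p53 target genes had a median of -0.11, as the housekeeping genes did, with 23 of 32 lowest. With spike-in controls the p53 median was 0.01, where that of all named genes was 0.08. BAX, a proapoptotic p53 target with 10 spots, was at 4.16, 4.04 and 3.77 in the order DAC, OR-2003 and OR-2100, a difference of -0.33 with a standard error of 0.02.

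Single genes stood out in lists whose median was near that of all genes. HMOX1, the heme oxygenase that NRF2 induces under oxidative stress, was at 3.87 with both DAC and OR-2003 and at 3.46 with OR-2100, against 3.28 with mock. Its difference was -0.41 with a standard error from 10 spots of 0.02. The aldo-keto reductase AKR1B10 was dim, at -3.33, -3.26 and -4.26, and was 1 gene called lower among 25 NRF2 targets, whose median was -0.06. The survival factor BCL2 was at -2.19 with both DAC and OR-2003 and -2.84 with OR-2100, and was the gene called lower among 26 apoptosis regulators. Over all named genes 0.558% were called lower, so 1 call in a list of this size says little about the list. AKR1B10 and BCL2 both lay under the level of -1, where most lower calls fell. In the list of cholesterol biosynthesis the regulator SREBF2 was higher by 0.21 while the list median was -0.07. Among enzymes of drug metabolism, the carboxylesterase CES2 was at 0.24, 0.23 and 0.49, and the list median was 0.06. Among genes of decitabine uptake and metabolism, the nucleoside transporter SLC29A2 was at -0.88, -0.90 and -0.56, and the list median was -0.07.

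The medians of stress pathways other than these stayed close to that of all named genes, though single members differed more. The integrated stress response, which adjusts translation and amino acid supply, had a median difference of -0.04 over 39 genes. Its single genes ran from -0.40 to 0.30. Its transcription factors ATF3 (5.89, 5.92 and 5.92 in the same order) and DDIT3 (0.75, 0.81 and 0.80) were within 0.02 of the mean of the other drugs. The unfolded protein response, the heat shock response, the metallothioneins and the glycolysis and hypoxia genes had medians from -0.07 to -0.05. Single genes ran from -0.18 to 0.30 in the unfolded protein response and from -0.36 to 0.19 in the heat shock response. They ran from -0.11 to -0.004 in the metallothioneins and from -0.45 to 0.36 in the glycolysis and hypoxia genes. HSPA1A, an inducible chaperone, was at 4.77, 4.78 and 4.76. In the keratin and junction list, whose median was -0.04, the intermediate filament gene KRT7 was at 6.03, 6.06 and 5.67 and the tight junction gene CLDN2 at -2.30, -2.18 and -2.88. Among collagens and matrix genes, with a median of 0.06, COL7A1, the collagen of anchoring fibrils, was at 0.33, 0.31 and 0.66, while the hemidesmosome collagen COL17A1 was at -3.06, -3.09 and -3.65. Among 30 genes of DNA damage repair the median was -0.09. None of the genes of these lists passed 1.5-fold against both drugs, where 0.262% of all named genes were higher and 0.558% lower.

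Lists tied to DNA demethylation itself had medians nearer to that of all genes than the interferon and mitotic lists. They were -0.03 for 37 cancer-testis genes, 0.00 for 32 germline and meiosis genes, 0.05 for 25 imprinted genes and 0.07 for 32 genes silenced by promoter methylation in colon cancer, against -0.04 over all named genes. Among these 4 lists, 0 genes passed 1.5-fold in either direction, against 0.262% higher and 0.558% lower over all named genes. At these shares, 0 calls in lists of this size say little about them. KCNQ1OT1, the antisense RNA of an imprinted domain, was at 0.44, 0.50 and 0.83. The imprinted zinc finger gene PLAGL1 was at -1.40, -1.29 and -0.94. TMEFF2, often methylated in colon cancer, was dim and went the other way, at -3.59, -3.20 and -3.96. UCHL1, a ubiquitin hydrolase gene that the study followed, was at 6.61, 6.77 and 6.69 in the order DAC, OR-2003 and OR-2100, where mock was not well above background. The Wnt antagonist SFRP1 was at -0.59, -0.71 and -0.43, and its OR-2100 difference was 0.22 with a standard error of 0.05 from 10 spots. OSR2 was at -0.34, -0.36 and -0.38. DNMT1, the target of DAC, was at 3.68, 3.80 and 3.60, and GAPDH, a glycolytic enzyme, was at 7.77, 7.73 and 7.65. The differences of UCHL1, OSR2 and GAPDH were -0.00, -0.03 and -0.11, and their signs depended on the scaling.

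Most measured transcripts of the imprinted DLK1-MEG3 region on chromosome 14 were highest with OR-2100. The region was picked after its values were seen, so its counts are a description. From the maternal chromosome the region gives the long noncoding RNAs MEG3, MEG8 and MEG9 and families of small nucleolar RNAs (snoRNAs) held in their introns, and DLK1 comes from the paternal one. Of 54 measured probes for 41 genes of the region, 50 were highest and 0 lowest with OR-2100, and the median difference was 0.35, with -0.05 between DAC and OR-2003. Over all named genes, each by its brightest probe, 27.6% were highest and 48.3% lowest. At 1.5-fold 6 probes, all of snoRNAs, were called higher and 0 lower, against 0.495% and 0.925% of all tested probes. All 6 probes of MEG3, 7 of MEG8 and both of MEG9 were highest with OR-2100.

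The brightest MEG3 probe was at 7.71 with DAC, 7.89 with OR-2003 and 8.15 with OR-2100, against -2.68 with mock. The other 5 probes of the gene differed by 0.37 to 0.57. MEG9 was at 2.70, 2.74 and 3.21 by its brighter probe, and the 7 probes of MEG8 differed by 0.20 to 0.37. Of the snoRNA probes, 34 of 37 were highest, with differences from -0.05 for SNORD114-6 to 0.92 for SNORD114-8. SNORD114-17 was at -0.67, -0.63 and -0.04, and SNORD113-9 at -1.01, -0.98 and -0.28, and both were called higher. The repeated snoRNA genes resemble each other, so that values of single copies are uncertain. DLK1 differed by 0.05 and 0.25 by its 2 probes. Small nucleolar RNAs outside the region had a median difference of 0.03 over 201 probes.

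The stretch upstream of MEG3 (chr14:100825858-100826107, plus strand) is shown with each CpG in capitals, as this promoter lies in a region of the locus that is methylated on 1 parental copy.
MEG3: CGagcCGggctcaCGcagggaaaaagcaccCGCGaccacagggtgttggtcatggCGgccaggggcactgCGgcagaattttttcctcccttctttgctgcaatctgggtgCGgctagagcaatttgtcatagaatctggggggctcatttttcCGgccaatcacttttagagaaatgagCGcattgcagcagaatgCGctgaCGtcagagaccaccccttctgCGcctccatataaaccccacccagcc
It held 13 CpGs. The median over the promoters of all named genes tested was 24, and over interferon-stimulated genes it was 9, both in the longer window with 50 bases after the start.

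**Figure D1:**
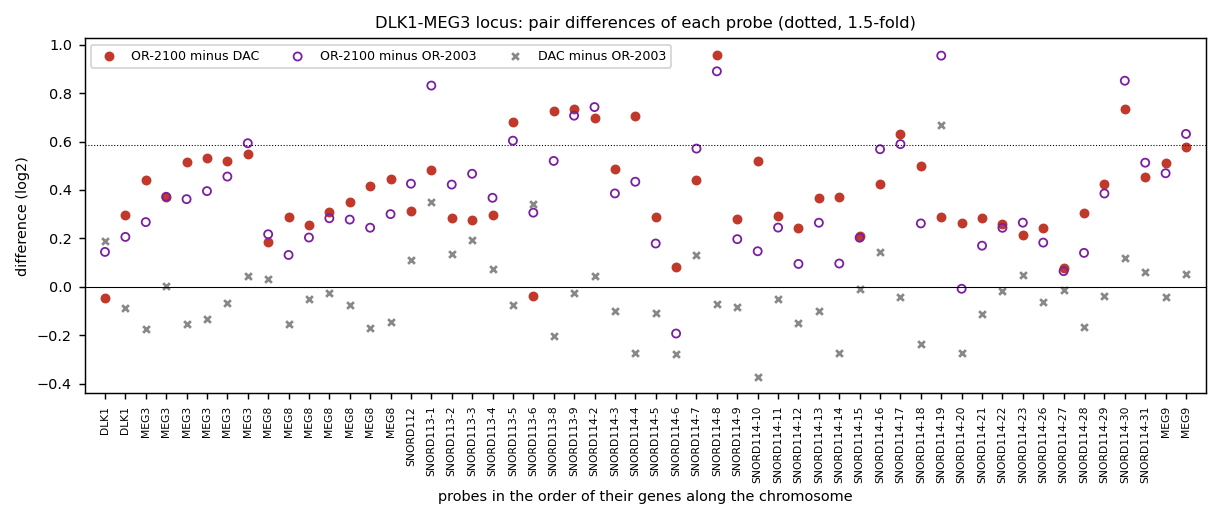
Pair differences (log2) of the 54 probes of the DLK1-MEG3 region, in the order of their genes along the chromosome, for OR-2100 minus DAC (filled), OR-2100 minus OR-2003 (open) and DAC minus OR-2003 (crosses), with 1.5-fold as a dotted line. Both OR-2100 differences are above 0 at 50 probes, while the crosses lie on both sides of 0.

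Noncoding and unnamed transcripts took most of the brighter calls. Of the 16 probes called higher at a level of -1 or more, 0 belonged to protein-coding genes, and the other classes held them all. The higher calls of all levels made up 0.162% of 19703 protein-coding probes and 1.09% of 10993 other probes, and the lower calls 0.416% and 1.84%. The other probes were dimmer, since 4172 of them and 14103 coding probes reached -1, and the part of the level in this difference was not tested. The snoRNA class had a median difference of 0.07 over 238 probes, against -0.04 for coding probes.

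ERC2-IT1, a noncoding RNA from an intron of ERC2, led the named genes at a level of -1 or more. It was at -0.93 with DAC, -0.97 with OR-2003 and -0.05 with OR-2100, against -0.36 with mock, so that OR-2100 was higher by 0.90. The pseudogene FAM153CP was at -0.27, -0.26 and 0.35, and its other probe differed by 0.13. SERPINA3, a serine protease inhibitor of the acute phase, was at -0.68, -0.77 and -0.12, and its other 2 probes differed by 0.35 and 0.49. MEG9, AGAP5, LOC105376713, MEG3, LINC01203, NUTM2B-AS1, RUFY2, FAM95B1, IFITM1 and GUSBP14 came next, with differences from 0.52 to 0.67. FAM153CP, AGAP5, NUTM2B-AS1, FAM95B1 and GUSBP14 have near copies in the genome and their values are uncertain. NUTM2B-AS1 has 3 more probes, of which 2 went the same way and 1 differed by -0.08. The other probes of RUFY2 and GUSBP14 differed by 0.02 and 0.14.

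TAF5L, a subunit of histone acetyltransferase complexes, was at 0.66 with DAC, 0.56 with OR-2003 and -0.06 with OR-2100, close to -0.02 with mock. Its difference was -0.67, but another probe of the gene differed by 0.07. The kinase DCLK1 was at 0.92, 1.00 and 0.37, and its other probe differed by -0.14. The protease KLK12 was at -0.30, -0.03 and -0.85. MYBPHL, LRRC2, SCARNA20, SPANXB1, IFT74, NDUFAF6, SH3PXD2A-AS1 and UBQLN1 had differences between -0.89 and -0.51. The lowest was LRRC2, at -0.31, 0.41 and -0.84, where DAC and OR-2003 differed by -0.72. DAC and OR-2003 also differed by -0.27 for KLK12 and -0.25 for MYBPHL. The secretory pathway genes TMED9 and SEC23A, the calcium channel ITPR1 and the MDM2-binding MTBP had differences between -0.46 and -0.42. SEC23A, which codes for a coat protein of vesicles leaving the endoplasmic reticulum, was at 3.95, 3.97 and 3.53. NDUFAF6 has 2 more probes that differed by -0.32 and 0.04, and the other probe of UBQLN1 differed by -0.16.

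Under the level of -1, differences were larger and so was the noise, as the robust SD of the DAC to OR-2003 difference, after the same scaling, was 0.321 in the dimmest group and 0.0648 in the brightest. SNORD114-8, FLYWCH1-AS1 and PATE2 were higher by 0.87 to 0.95. The homeobox gene DBX1 was at -2.63, -2.64 and -4.07, a difference of -1.44. FXYD2, MTR, GSG1 and TBC1D30 had differences between -1.41 and -1.27. The 2 other probes of MTR, methionine synthase, differed by -0.08 and -0.03, and the other probe of FXYD2 by -0.13. GSG1 has another tested probe that differed by 0.04, and a probe that was not well above background with OR-2100 and at least 3.24-fold lower there. At the limit of detection, 798 probes were well above background on the OR-2100 array and on neither of the others, and 849 on both others but not with OR-2100. The same counts for a single array were 436 with DAC and 1148 with OR-2003. RBBP8NL led the second group, at least 3.33-fold lower with OR-2100, where it was not well above background. In the first, LINC01205 was at least 2.19-fold higher.

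Spots and probes of the same gene were compared within the arrays. Of 285 probes with 10 spots each, the difference was beyond 2 standard errors of the spots in 203, of which 36 were above and 167 below 0, while the DAC to OR-2003 difference was in 75. The median over these probes was -0.07 for the OR-2100 difference and 0.01 for the other, so that part of the count was a common shift. With these medians taken off, the counts were 164, of which 82 were above and 82 below, and 77. The median standard errors were 0.03 for each. Spots of 1 array share the RNA and the labelling, so this error leaves out the spread between cultures. Over 2525 genes with at least 2 probes at a level of -1 or more, the OR-2100 difference of the 2 brightest probes had a Pearson's r of 0.39 across genes and the DAC to OR-2003 difference an r of 0.14. Genes are not independent replicates, and both probes were read on the same arrays. In 32 blocks of the array surface, the median OR-2100 difference lay between -0.07 and -0.00.

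Comparisons that share no array asked whether OR-2100 differed most where the drugs acted. Among 2779 probes at least 4-fold higher with OR-2003 than with mock (raised), OR-2100 minus DAC had a median of 0.05, and among the 26865 probes changed less it was -0.04. Among 2720 probes raised by DAC, OR-2100 minus OR-2003 had a median of 0.02, and in the rest it was -0.04. Of the raised probes, 59.1% and 54.1% were higher with OR-2100 in these comparisons, and of the rest 41.1% and 40.7%. In the mirror comparison, DAC minus OR-2003 had a median of -0.02 among 2766 probes raised by OR-2100 and -0.00 in the rest, a gap that took the other sign with normexp. Probes lowered at least 4-fold had medians of -0.05 in both OR-2100 comparisons. These medians are small beside the spread, as the robust SD of OR-2100 minus DAC over the raised probes was 0.242.

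**Figure D2:**
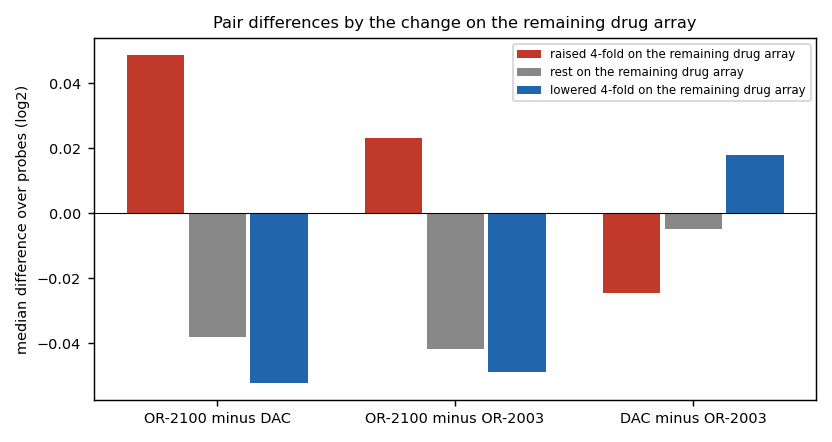
Median pair difference (log2) over probes raised at least 4-fold, lowered at least 4-fold or changed less on the remaining drug array against mock, so that the bars of a group and the sorting of its probes use different arrays. The raised probes are at 0.05 and 0.02 for OR-2100 minus DAC and OR-2100 minus OR-2003, and at -0.02 for DAC minus OR-2003.

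Promoters of genes at both ends of the comparison overlapped in CpG number, with a lower median and lower quartile among the genes higher with OR-2100. Among named genes at a level of -1 or more, the promoter had a median of 19.5 CpGs where the OR-2100 difference was 0.25 or more, over 234 genes with a promoter of 375. It was 24 where the difference was -0.25 or less, over 347 of 464, and 26 over all 9833. The quartiles of the first group were 7 and 32, those of the second 15 and 33.5 and those over all 17 and 34. The groups overlapped widely, and the first reached further down.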

How the data were processed

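RNA of mock-, DAC-, OR-2003- and OR-2100-treated HML58-3 cells was hybridized to 1 one-colour Agilent array each. The authors deposited the scanner intensity of each spot, background-corrected by Feature Extraction 12.1.0.3 (per the file headers) and not normalized between arrays. A deposited table of the series held the same values. Spots marked as outliers were left out, log2 intensities of the spots of a probe were averaged, and scaled to a 75th percentile of 0 per array. Probes were tested when more than 0.5 of their kept spots were well above background on each of the 3 drug arrays, which numbered 32443, 33282 and 32545 for DAC, OR-2003 and OR-2100. The number of arrays limits the precision. Of the probes, 34892 were named through RefSeq (GRCh38.p14), and promoters were matched by symbol to 13417 of the 17559 genes tested, with the first one listed for a gene. A gene in a list stands for its brightest probe. Named are the 15 highest and 15 lowest genes at a level of -1 or more and the 5 of each under it. They were ranked by the smaller difference to DAC or OR-2003, with 1 probe per gene. Also named are the largest differences of each list described, the genes the study names and disagreeing probes. Some list members with smaller differences, such as ATF3, DDIT3 and HSPA1A, are named as well. A few genes that these rules would name are not reported here. Members and lists were chosen with earlier results of these data known. Alternatives were other scalings, normexp with an offset of 50, spot handling, probe filters and call rules. Counting was tested on simulated data. Python 3.11.15, pandas 2.3.3, R 4.3.3 and limma 3.58.1 were used, and no test between conditions was run.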

Additional observations from a re-analysis of the deposited data

How the results depend on the processing

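With 1 array per drug none could be left out. No paired analysis was possible because the arrays carry no replicate numbers. The series table, outlier spots kept and the median of spots gave the same 152 higher and 284 lower probes, and the ratio of spreads lay between 1.27 and 1.47 under all 11 alternatives. The counts of probes higher and lower with OR-2100 that moved by over 1.5 times were as follows. With the median at 0, 266 were higher, and with quantile normalization 184 were lower. With spike-in controls (8 probes in the linear range) the counts were 371 and 159, and with normexp 2 and 1, where the offset of 50 compresses dim signals. With detection on at least 1 array they were 472 and 1567, at a level of -1 or more on all 3 arrays 15 and 1, at 2-fold 4 and 27, from the mean of both arrays 303 and 522, against DAC alone 519 and 513, against OR-2003 alone 444 and 805, and as distinct genes with any probe 69 and 134. Probes 1.5-fold apart for DAC and OR-2003, OR-2100 and DAC, and OR-2100 and OR-2003 numbered 6, 10 and 16 with normexp, 2516, 3383 and 3903 with detection on at least 1 array, and 13, 38 and 47 at a level of -1 or more on all 3. At 2-fold they numbered 27, 81 and 166. Among the lists described first (interferon to p53, with all named genes), the medians that moved by more than the noise of their list were, with the median at 0, -0.0614 for DNA replication, 0.286 for NF-kappaB targets, 0.213 for antigen presentation, -0.0468 for ribosomal proteins, -0.124 for mitosis, -0.0619 for oxidative phosphorylation and -0.0287 for p53 targets. With spike-in controls they were, in this order, -0.0184, 0.329, 0.256, -0.00384, -0.0806, -0.0190 and 0.0143, with -0.0604 for histones and 0.0849 for all named genes. Quantile normalization gave -0.0339 for ribosomal proteins and -0.0701 for oxidative phosphorylation, cyclic loess 0.0105 and -0.0633, and normexp 0.146 for NF-kappaB targets. Of the other lists, 43 values moved, to between -0.0450 and 0.182, and 36 of them were above 0, 24 of these with spike-in controls and 8 with the median at 0. Spike-in controls and the median at 0 shift each array by a constant, so that all list medians move by the same amount. For the values that moved with quantile normalization and cyclic loess the cause was not tested. Set against the median of all named genes, interferon-stimulated genes lay between 0.16 and 0.25 and mitotic genes between -0.17 and -0.15 over these settings. Of 405 values of named genes, 345 stayed within the noise of their level, and 10, of GAPDH, OSR2 and UCHL1, took the other sign. The DLK1-MEG3 median, added after seeing the data, lay between 0.26 and 0.48. The counts of 10-spot probes with their median taken off were added after seeing the data too.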
